A study of Mus musculus with 6 samples.

Results

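The genes described here encode the protein components of the cytosolic ribosome in mouse. They were chosen by name: protein-coding genes called Rpl or Rps plus a number with an optional final letter a, x or l, together with Rplp0, Rplp1, Rplp2 and Rpsa, while ribosomal S6 kinases and pseudogenes were left out. The rule found 79 genes among the 37991 gene identifiers listed, of which 48 belong to the large (60S) subunit and 31 to the small (40S) subunit. They lie on 19 chromosomes. Rps4l and Rpl6l fitted the name pattern but are annotated as pseudogenes and were not counted. The RNA came from mouse tumours that grew from cutaneous squamous cell carcinoma (cSCC), a cancer of skin keratinocytes. Tumours were either Kindlin-1 Null, in which Kindlin-1 was knocked out (3 libraries), or Kindlin-1 WT, in which it was kept (3 libraries). Fermt1 codes for Kindlin-1, a cytoplasmic protein that binds the tails of beta integrins. The labels name cSCC as the cell line and the tumour as the tissue, and they give no clone, host strain, age or treatment, so whether each genotype is 1 clone is not given in the sources used here.

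The ribosome is built in the nucleolus and cytoplasm from ribosomal RNA and a fixed set of proteins, most of them present as a single copy per particle. The mRNAs of these proteins carry a 5′ terminal oligopyrimidine tract, known as a TOP motif, through which mTORC1 and the RNA-binding protein LARP1 adjust their translation, and MYC is a known activator of their transcription. Because proliferating cells invest much of their transcription in ribosomes, these mRNAs are among the most abundant in growing tissue.

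The pyrimidine tract can be looked for at the annotated transcription starts. RefSeq promoters (build GRCm38.p6) were found for 59 of the 79 genes. In 17 of them (28.8%) the annotated start lay within an unbroken run of at least 6 C or T bases, against 7.1% of all 27025 promoters in the same table. The promoters printed here are those of Rpl15, Rps10, Rps18, Rplp2, Rpl38 and Rps6, which cover a wide range of the fold changes given below and were picked for that after the values were known. All of them are among the 17 with such a run, so they do not stand for the promoters without one. Each shows 25 bases before the start and 20 bases from it, 5′ to 3′, with the C and T run across the start in capitals.
Rpl15: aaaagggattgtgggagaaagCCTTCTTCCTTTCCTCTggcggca
Rps10: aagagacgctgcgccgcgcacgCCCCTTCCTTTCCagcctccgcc
Rps18: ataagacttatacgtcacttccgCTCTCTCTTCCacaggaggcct
Rplp2: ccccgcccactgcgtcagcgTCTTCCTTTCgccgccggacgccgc
Rpl38: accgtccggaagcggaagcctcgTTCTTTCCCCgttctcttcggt
Rps6: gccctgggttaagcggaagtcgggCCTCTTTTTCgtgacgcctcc
Their runs measured 17, 13, 11, 10, 10 and 10 bases in that order. The stretches lie at chr14:18270967-18271011 (minus strand), chr17:27635225-27635269 (minus), chr17:33955646-33955690 (minus), chr7:141447626-141447670 (plus), chr11:114668555-114668599 (plus) and chr4:86857348-86857392 (minus). Over the whole promoter entry of 250 bases before and 50 after the start, read on both strands, the letters CCGGAAG, which resemble an ETS factor site, occurred in 24 of the 59 promoters (40.7%) and in 9.12% of all promoters. AAGATGGCG, which resembles a YY1 site, occurred in 3 (5.08%) and in 1.49% of all. TATAAA, the core of a TATA box, occurred in 5 (8.47%) and in 14.2% of all. None of these matches shows that a factor binds.

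Depth differed widely between libraries. Reads assigned to genes came to between 1138318 and 31487255 in the Null libraries and between 161711 and 15529242 in the WT libraries, with WT library 2 the shallowest. Fermt1 was listed with 0, 2 and 2 reads in Null libraries 1 to 3, against 16, 2 and 1040 reads in WT libraries 1 to 3. In CPM (TMM-scaled counts relative to the library total) this was 0, 0.0634 and 0.393 in Null and 12.5, 12.3 and 64.9 in WT, where 3 reads stand at 2.64 CPM in Null library 1 and at 18.6 CPM in WT library 2, so these 2 libraries cannot be told apart by Fermt1 at their depth. The fit gave a log2 fold change, Null minus WT, of -8.18 (standard error, SE, 0.89; adjusted p = 0.000297 by edgeR, a count model fitted to all genes). Keratinocyte markers were scarce in both groups: the 15 listed summed to 72.4 to 136 CPM in the Null libraries and to 81 to 154 CPM in the WT libraries, and Krt5 stood at 0 to 0.393 CPM in Null and at 0 to 3.9 CPM in WT. In the titles, Null libraries 2 and 3 carry 1 mouse number with the letter L or R, as do WT libraries 1 and 2. The meaning of the letters is not given. Each group holds only 2 animals if libraries with a common number came from 1 mouse. WT library 3 stood apart from the other libraries over the ribosomal protein genes, as described below. Where leaving it out moved the log2 fold change of a described member or the median of a translation list by over 1.5 times, that value is given too.

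Ribosomal protein genes took a larger part of the reads in the Null libraries than in any WT library. Their summed share of reads was 8.04%, 6.16% and 6.9% in Null libraries 1 to 3, against 6.01%, 5.79% and 4.53% in WT libraries 1 to 3. The shares did not overlap, although Null library 2 and WT library 1 lay close together. The mean was 7.03% ± 0.944 in Null and 5.44% ± 0.804 in WT (SD, n = 3 each), a difference of 1.59 percentage points. An exact two-sided permutation test gave p = 0.1, the smallest value that 3 against 3 libraries allow. Counting error was small beside this spread: the 95% Wilson interval was 5.68% to 5.91% in WT library 2, the shallowest, where 9369 reads fell in these genes. In bulk tumour RNA, fewer cells of a type and less RNA per cell cannot be told apart.

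**Figure D1:**
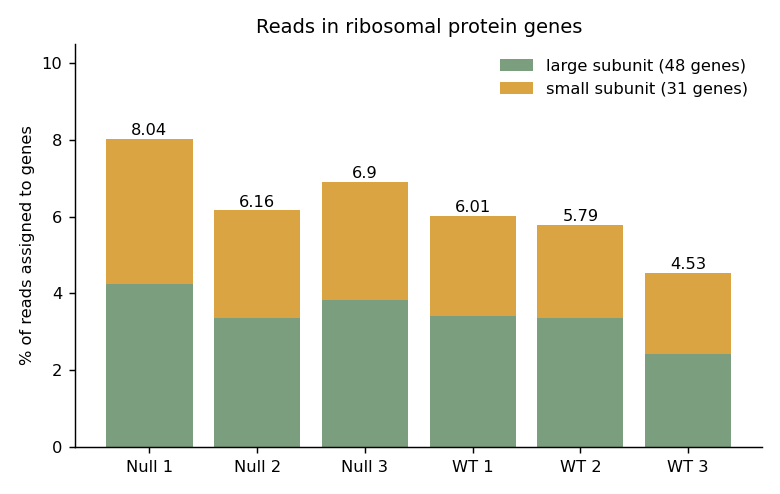
Share of the reads assigned to genes that fell in ribosomal protein genes (%), by library, stacked by subunit. Null libraries 1 to 3 stand at 8.04%, 6.16% and 6.9% and WT libraries 1 to 3 at 6.01%, 5.79% and 4.53%.

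Both subunits had higher mean shares in Null. Large-subunit genes held 4.24%, 3.37% and 3.82% of the reads in Null libraries 1 to 3 and 3.41%, 3.35% and 2.41% in WT libraries 1 to 3 (exact permutation p = 0.2, two-sided), so that Null library 2 lay below WT library 1. Small-subunit genes held 3.79%, 2.8% and 3.08% in Null and 2.61%, 2.44% and 2.12% in WT, without overlap (exact permutation p = 0.1, two-sided). Reading the share over the 4 libraries of a shared mouse number, that is Null libraries 2 and 3 and WT libraries 1 and 2, gave a difference of 0.627 percentage points (exact permutation p = 0.333333).

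No single ribosomal protein gene passed the test between the groups. Of the 79 genes, 76 had enough reads to be tested, and 0 of 76 had an edgeR adjusted p under 0.05, against 5.79% of the 11887 genes tested (688 genes, of which 269 were higher in Null, 2.26%, and 419 lower, 3.52%). The lowest adjusted p, 0.0715, belonged to Rpl9, and the median over the 76 genes was 0.412 by the same edgeR test. At an unadjusted p under 0.05, 16 of 76 genes (21.1%) passed, all of them higher in Null, against 25.1% of all tested genes in either direction and 12.1% in the higher direction. DESeq2 called 7 of 77 tested genes (9.09%, against 5.09% of all genes it tested), of which 6 were higher in Null (7.79%, against 2.15%), among them Rps18, Rps14, Rps3, Rpl9 and Rpl5. The seventh, Rpl3l, was lower (1.3%, against 2.94%). A limma-voom fit with mouse number as a random effect called 9 (11.8%, against 8.08% of all), all higher in Null (against 4.48%), and these included the same 6 genes. Without a filter on low counts edgeR called 3 of 78 (3.85%, against 3.77% of all), and over the 4 libraries of a shared mouse number it called 5 of 77 (6.49%, against 4.98% of all).

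Most of these genes nonetheless had positive log2 fold changes. The estimate was above 0 for 67 of 76 genes (88.2%), against 50.7% of all tested genes, and its median was 0.44 (interquartile range 0.17 to 0.72), against 0.01 (-0.43 to 0.43) for all tested genes. SEs ran from 0.25 to 0.78. The median was 0.46 for the large subunit, where 38 of 45 were above 0, and 0.41 for the small subunit, where 29 of 31 were. Without WT library 3 these medians were 0.17 for the large and 0.36 for the small subunit, so their order turned. In 22 of 76 genes (28.9%) every Null library lay above every WT library, against 16.2% of all tested genes, and in 0 of 76 every Null library lay below every WT library, against 14.3%. The size of the median rested in part on 2 libraries: it was 0.26 without WT library 3, where 59 of 77 tested genes lay above 0 (76.6%, against 51.4% of all), and 0.30 without Null library 1. It stood at 0.09, against 0.03 for all genes tested, over the 4 libraries of a shared mouse number, where 51 of 77 tested genes (66.2%) lay above 0 against 51.7% of all.

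**Figure D2:**
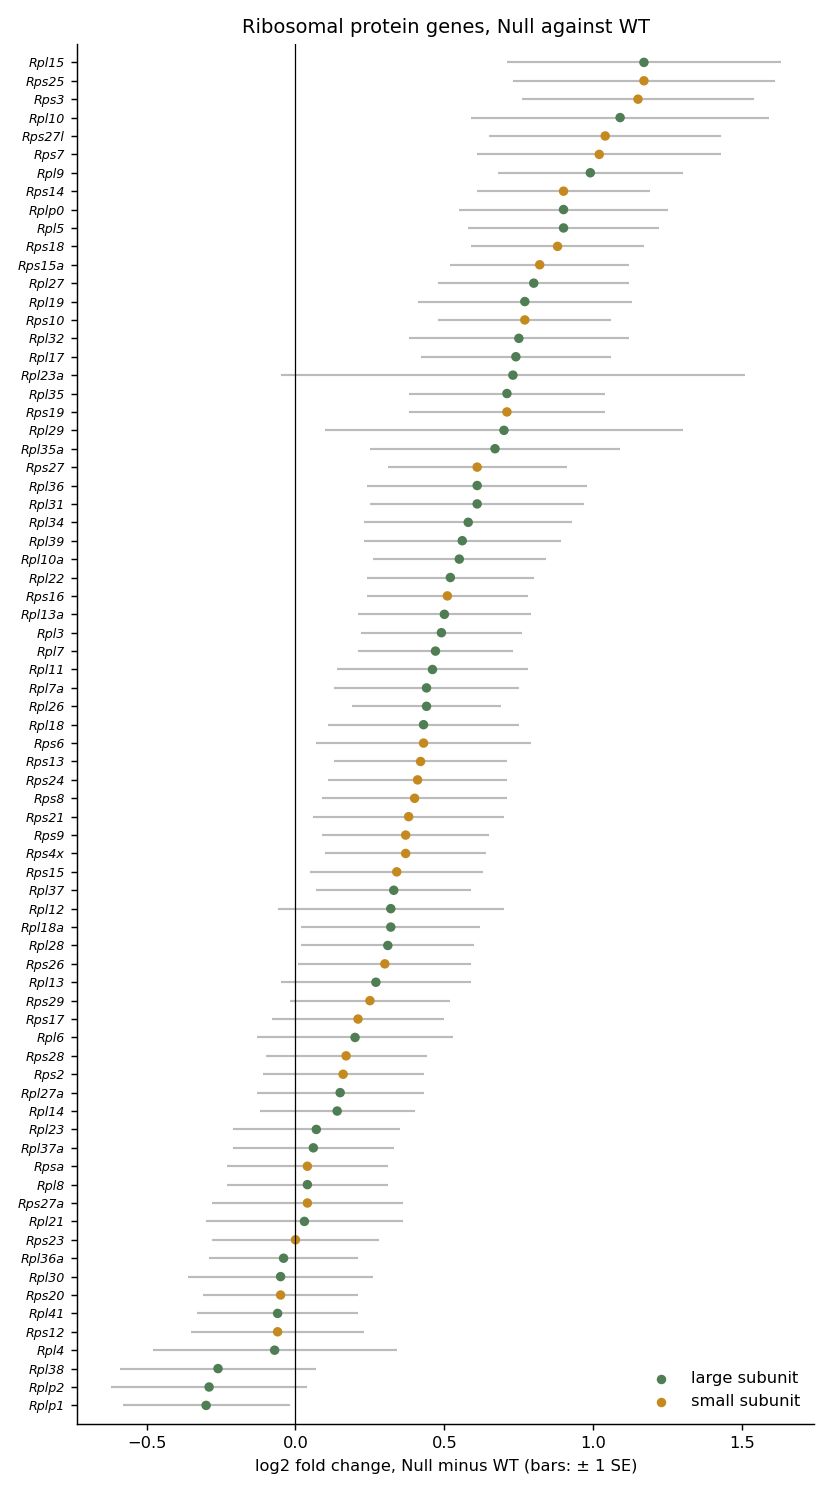
Log2 fold change of 74 of the tested ribosomal protein genes, Null minus WT, with bars of 1 SE, from the edgeR fit. Points run from 1.17 for Rpl15 and Rps25 at the top to -0.30 for Rplp1 at the bottom.

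Several small-subunit genes had log2 fold changes near or above 1 without passing the test. Rps3, which lines the channel where mRNA enters the ribosome, had 3444, 2101 and 2353 CPM in Null libraries 1 to 3 against 1547, 1456 and 567 CPM in WT libraries 1 to 3, without overlap. Its log2 fold change of 1.15 (SE 0.39) missed the threshold with an edgeR adjusted p of 0.0924. Rps25, a small-subunit protein needed for some internal ribosome entry sites, had 820, 381 and 478 CPM in Null and 344, 319 and 100 CPM in WT. Null library 2 lay close above WT library 1, and the log2 fold change was 1.17 (SE 0.44, edgeR adjusted p = 0.121), or 0.72 without WT library 3. Rps14, a component of the small-subunit platform whose loss underlies the anaemia of the human 5q deletion, had 2799, 2389 and 2225 CPM in Null against 1608, 1302 and 1071 CPM in WT. For Rps14 the gap between the groups was wider than the range within either, with a log2 fold change of 0.90 (SE 0.29, edgeR adjusted p = 0.0842) and of 0.74 without WT library 3.

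Other small-subunit genes differed less. Rps6, the substrate of S6 kinase and the protein whose phosphorylation is commonly read as mTORC1 activity, had 610, 343 and 578 CPM in Null and 454, 510 and 199 CPM in WT. The groups overlapped, and the log2 fold change was 0.43 (SE 0.36, edgeR adjusted p = 0.483), or 0.07 without WT library 3. Rps15 had 2530, 1558 and 1837 CPM in Null and 1706, 1481 and 1498 CPM in WT. Its log2 fold change was 0.34 (SE 0.29), and Null library 1 alone stood well above the rest. Rps12 had 1784, 1255 and 1444 CPM in Null and 1414, 1364 and 1888 CPM in WT, where WT library 3 was the highest of the 6. Its log2 fold change of -0.06 (SE 0.29) became 0.08 without that library. Rps20 varied little, at 1135, 1264 and 1297 CPM in Null and 1304, 1321 and 1215 CPM in WT. Rps27a, translated as a fusion of ubiquitin and the ribosomal protein, had 920, 421 and 801 CPM in Null against 649, 768 and 673 CPM in WT. For Rps27a the Null values lay on both sides of the WT values, and the log2 fold change was 0.04 (SE 0.32), or -0.01 without WT library 3.

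**Figure D3:**
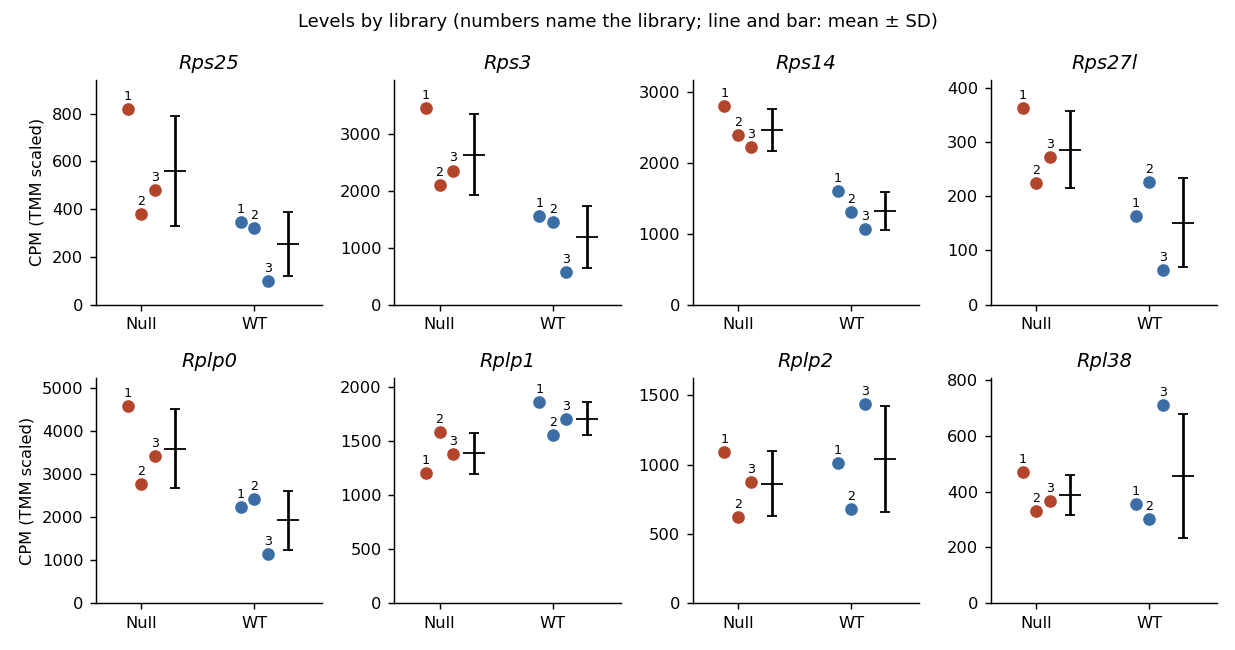
TMM-scaled CPM of 8 ribosomal protein genes in each library (points, numbered by library) with the mean ± SD of each group (line and bar, n = 3 each). Null points lie above all WT points for Rps25, Rps3, Rps14 and Rplp0, and overlap with them for Rps27l, Rplp1, Rplp2 and Rpl38.

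In the large subunit, Rpl15 had the highest estimate. It had 374, 244 and 329 CPM in Null libraries 1 to 3 and 172, 246 and 46.4 CPM in WT libraries 1 to 3. WT library 2 overlapped the Null range and WT library 3 lay far below the other 5 libraries. The log2 fold change was 1.17 (SE 0.46, edgeR adjusted p = 0.14) and 0.64 without WT library 3. Rpl10, which joins the large subunit late in its maturation, had 1350, 540 and 1135 CPM in Null and 614, 700 and 143 CPM in WT. Its groups overlapped, and the log2 fold change of 1.09 (SE 0.50, edgeR adjusted p = 0.2) became 0.60 without WT library 3. Rpl9 had 1785, 1062 and 1113 CPM in Null against 753, 700 and 539 CPM in WT, with no overlap and a log2 fold change of 0.99 (SE 0.31). Rpl32 had 2350, 1596 and 1864 CPM in Null against 1518, 1382 and 561 CPM in WT. Its groups did not overlap either, but Null library 2 and WT library 1 lay near each other, and the edgeR adjusted p was 0.224 for a log2 fold change of 0.75 (SE 0.37), which was 0.39 without WT library 3.

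A few large-subunit genes had negative or widely scattered estimates. Rpl4 had 1021, 1370 and 1663 CPM in Null and 1722, 2009 and 567 CPM in WT, so WT held both the highest and the lowest value. Its log2 fold change was -0.07 (SE 0.41), 0.25 without WT library 2 and -0.49 without WT library 3. Rpl38, which in mouse embryos is needed for translating a subset of Hox mRNAs, had 469, 331 and 367 CPM in Null and 354, 301 and 711 CPM in WT. Only WT library 3 stood apart, and the log2 fold change of -0.26 (SE 0.33) became 0.20 without it. Rpl23a, which lies at the exit of the peptide tunnel, had 143, 13.3 and 118 CPM in Null against 73.4, 86 and 26.3 CPM in WT, and its SE of 0.78 was the largest among the 76 genes. Its log2 fold change was 0.73, or 0.15 without WT library 3. Rpl29 had 92.1, 52.6 and 103 CPM in Null and 86.7, 79.9 and 12.2 CPM in WT, with a log2 fold change of 0.70 (SE 0.60) that became -0.08 without WT library 3.

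Rpl5 and Rpl11 travel with 5S ribosomal RNA and, when ribosome assembly is disturbed, bind MDM2 and stabilize p53. Rpl5 had 820, 729 and 686 CPM in Null libraries 1 to 3 against 478, 504 and 235 CPM in WT libraries 1 to 3. The groups did not overlap, and the log2 fold change was 0.90 (SE 0.32, edgeR adjusted p = 0.105), or 0.58 without WT library 3. Rpl11 had 430, 456 and 443 CPM in Null and 366, 442 and 187 CPM in WT. WT library 2 fell within the narrow Null range, and the log2 fold change of 0.46 (SE 0.32, edgeR adjusted p = 0.378) became 0.13 without WT library 3.

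The P stalk recruits elongation factors to the large subunit, with Rplp0 at its base and pairs of Rplp1 and Rplp2 attached to it. Rplp0 had 4577, 2755 and 3417 CPM in Null and 2224, 2408 and 1132 CPM in WT. The groups did not overlap, and the log2 fold change was 0.90 (SE 0.35, edgeR adjusted p = 0.137). Rplp1 had 1202, 1581 and 1377 CPM in Null against 1861, 1560 and 1705 CPM in WT, with the lowest log2 fold change of the 76 genes (-0.30, SE 0.28, edgeR adjusted p = 0.514). Rplp2 had 1092, 620 and 872 CPM in Null and 1008, 676 and 1436 CPM in WT, and its log2 fold change of -0.29 (SE 0.33) became -0.01 without WT library 3. The estimates of the stalk genes thus had different signs.

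The ratio of reads between stalk genes within a library does not depend on library scaling. Rplp0 had 3.81, 1.74 and 2.48 reads per Rplp1 read in Null libraries 1 to 3 and 1.19, 1.54 and 0.664 in WT libraries 1 to 3. All Null ratios lay above all WT ratios, a log2 difference of 1.25 that ranged from 0.91 to 1.52 when each library was left out in turn. The exact permutation p was 0.1, two-sided, and 0.15 after Benjamini-Hochberg adjustment over the 3 ratios. Rplp0 had 4.19, 4.44 and 3.92 reads per Rplp2 read in Null and 2.21, 3.56 and 0.788 in WT, a log2 difference of 1.19 (exact permutation p = 0.1, adjusted 0.15). WT library 3 lay far below the others in this ratio, and the SD of the log2 ratio was 1.11 in WT against 0.09 in Null. The ratios of WT libraries 1 and 2, 2.21 and 3.56, lay below every Null ratio but much nearer to them than that of WT library 3. The size of the difference thus rests in part on WT library 3. It was not computed with a library left out. Rplp1 had 1.1, 2.55 and 1.58 reads per Rplp2 read in Null and 1.85, 2.31 and 1.19 in WT, a log2 difference of -0.06 (exact permutation p = 0.9).

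Paralogues of limited tissue range were mostly near the limit of detection. Rps27l, a paralogue of Rps27 and a p53 target in human cells, was the exception, with 363, 224 and 273 CPM in Null and 163, 227 and 64.6 CPM in WT. WT library 2 overlapped the Null range, and the log2 fold change was 1.04 (SE 0.39, edgeR adjusted p = 0.127), or 0.59 without WT library 3. Rpl3l, which takes the place of Rpl3 in striated muscle, had 1, 12 and 0 reads in Null libraries 1 to 3 and 10, 2 and 22 reads in WT libraries 1 to 3. Pooled over each group and divided by all assigned reads, this was 0.343 CPM in Null (exact 95% Poisson interval 0.183 to 0.587) and 2 CPM in WT (1.39 to 2.8). By library on the same scale, Null held 0.878, 0.381 and 0 CPM and WT held 7.79, 12.4 and 1.42 CPM. The pooled WT value thus follows WT library 3, the deepest, and WT libraries 1 and 2 lay above its interval. Rpl3l did not reach the minimum for the main test. DESeq2 tested it and called it lower in Null (log2 fold change -4.18, DESeq2 adjusted p = 0.0205), as did edgeR without a filter on low counts (-3.90, adjusted p = 0.0374). Beside it, the 20 skeletal muscle markers, all listed in the files, summed to 111, 149 and 61.2 CPM in Null and to 1781, 928 and 700 CPM in WT, and 15 of 19 tested fell in Null. The part of muscle content in the Rpl3l counts was not tested. Rpl39l had 1, 8 and 5 reads in Null and 7, 0 and 7 reads in WT, a pooled 0.37 CPM in Null (0.202 to 0.621) and 0.825 CPM in WT (0.451 to 1.38). By library this was 0.878, 0.254 and 0.957 CPM in Null and 5.45, 0 and 0.451 CPM in WT. Rpl10l, a testis paralogue of Rpl10, had 0 reads in all 6 libraries, which allows up to 0.0975 CPM in the pooled Null and 0.217 CPM in the pooled WT reads (upper ends of the exact 95% Poisson intervals). Intervals and limits cover counting error only.

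Levels can be compared between genes only per length, here as CPM per kilobase of the annotated transcript. The highest 6-library means were those of Rps15 (3537 CPM per kilobase), Rps14 (3181), Rplp1 (3102), Rps12 (3087) and Rpl32 (2989). Rps15 averaged 3950 ± 1002 CPM per kilobase in Null and 3123 ± 251 in WT (SD, n = 3 each), and Rps14 averaged 4139 ± 496 in Null and 2223 ± 452 in WT. Neighbours in this order lay within the spread of the libraries. Rpl29 (122 CPM per kilobase), Rpl23a (137), Rpl5 (281), Rpl15 (293) and Rps20 (339) were the lowest of the 76 tested genes. For Rps20 the annotated transcript used was 3706 bases long, the longest in the set, which lowers its value per kilobase. Rpl29, Rpl23a, Rpl5 and Rpl15 share most of their sequence with other genes, and reads with several alignments were not counted. Their levels may therefore be too low. Rps12, among the highest above, shared 90.1% of its transcript with other genes. Over the 76 tested genes, Spearman's rho of the mean level per length with the share of the transcript found in other genes was -0.12. The part of uncounted reads in the low ranks was not tested.

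Over the 6 libraries, most of the ribosomal protein genes shared a profile. With each gene's log2 CPM set against its own 6-library mean, the median over the 76 genes was 0.50, 0.02 and 0.25 in Null libraries 1 to 3 and 0.01, -0.06 and -0.70 in WT libraries 1 to 3. In all tested genes the same medians stayed between -0.05 and 0.07, a range that the TMM scaling itself keeps narrow. In Null libraries 1 to 3, 70, 41 and 67 of the 76 genes lay above their own mean, against 39, 31 and 10 in WT libraries 1 to 3. Null library 1 and WT library 3 were thus the extremes, and their medians differed by 1.19 log2 units. After thinning every library to 161711 reads the medians were 0.45, 0.05 and 0.26 in Null and -0.00, -0.04 and -0.68 in WT. The extremes then differed by 1.14 log2 units. With library totals alone, without TMM scaling, the medians were 0.44, 0.03 and 0.22 in Null and 0.01, -0.04 and -0.64 in WT. On that scale the extremes differed by 1.08 log2 units.

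**Figure D4:**
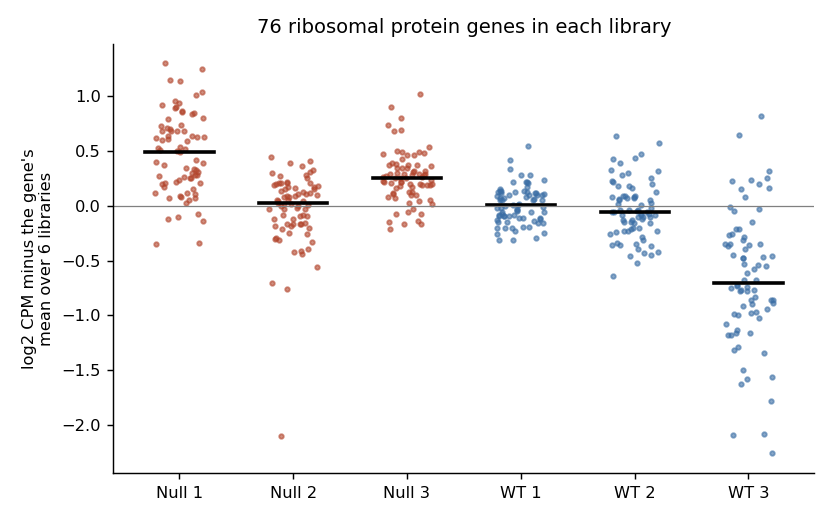
Deviation of each of the 76 tested ribosomal protein genes from its own 6-library mean, in log2 CPM, by library (points), with the median of each library (line). Medians are 0.50, 0.02 and 0.25 in Null libraries 1 to 3 and 0.01, -0.06 and -0.70 in WT libraries 1 to 3.

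Single genes followed this profile to different degrees. WT library 3 held the lowest value of the 6 libraries for 56 of 76 genes (73.7%), against 23.9% of all tested genes. Null library 1 held the highest for 51 (67.1%), against 25.2% of all. Both held for 39 genes (51.3%), against 9.26% of all. WT library 3 held the highest value for 6 genes (7.89%), against 26.6% of all tested genes: Rpl37a, Rpl36a, Rpl41, Rps12, Rpl38 and Rplp2. These 6 were singled out after their values were seen. WT library 3 also differed from the others in reads outside genes, with 12% of listed reads in no annotated gene and 40% with several alignments. The Null libraries had 4.63% to 5.84% in no gene and 32.9% to 34.9% with several alignments, and WT libraries 1 and 2 had 7.15% to 8.75% and 34.1% to 35.9%. The part of these reads in the profile was not tested.

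**Figure D5:**
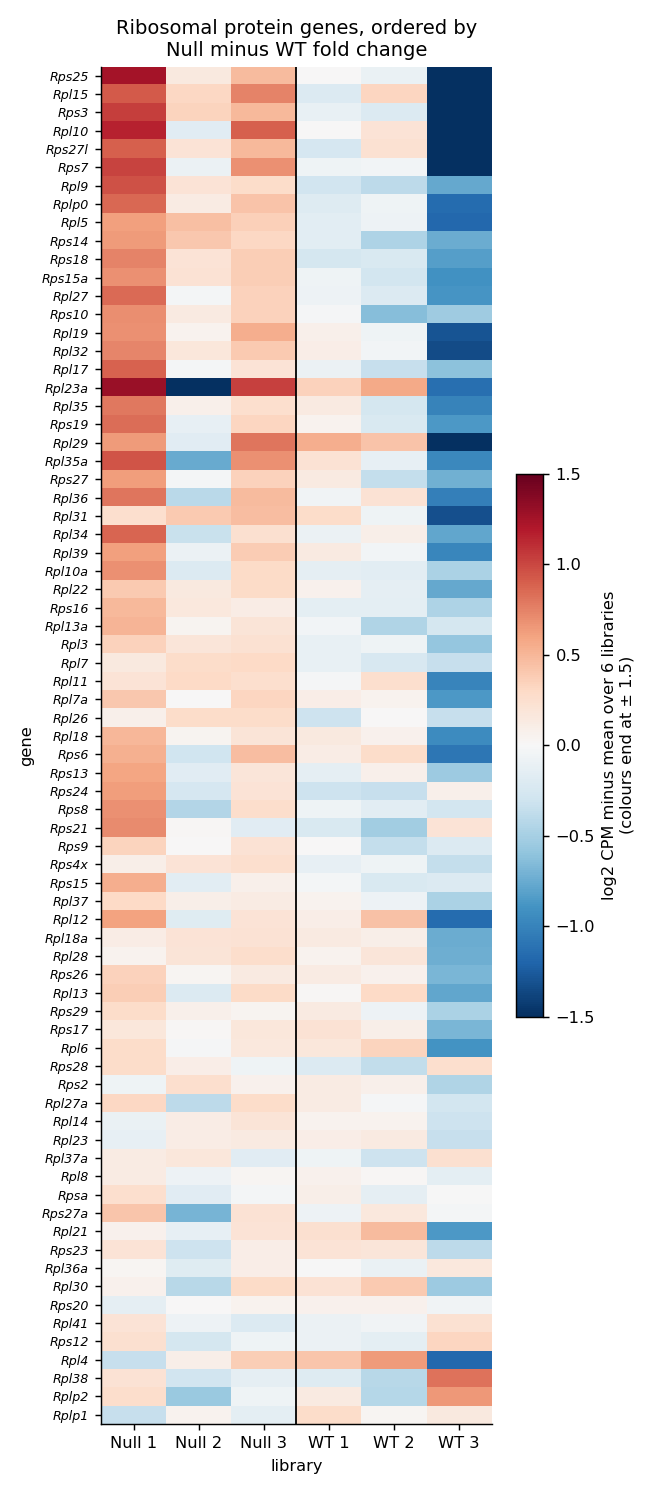
Deviation of 74 tested ribosomal protein genes (rows, ordered by log2 fold change) from their own 6-library means in log2 CPM, by library (columns); colours end at ±1.5. WT library 3 is the lowest for 54 of these 74 genes, while Rpl38 and Rplp2 at the bottom are highest there.

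Pairs of libraries were compared by the spread of the log2 differences over the genes at equal depth. WT libraries 1 and 2, which share a mouse number, were the closest pair, with an SD over genes of 0.24. Next came Null library 3 with WT library 2 (0.31) and with WT library 1 (0.32), followed by Null libraries 1 and 3 (0.34). Null libraries 2 and 3, which also share a mouse number, had an SD of 0.47. WT library 3 lay at 0.64 to 0.87 from each of the other libraries. Over these genes the libraries therefore did not sort by genotype alone.

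WT library 3 set against the mean of WT libraries 1 and 2 gave log2 differences of -2.75 to 1.12 over the 76 genes, with a median of -0.60. Null library 1 set against the mean of Null libraries 2 and 3 gave -0.56 to 1.84, with a median of 0.38. These differences and the fold changes were set beside 3 gene properties as a description across genes, which are not independent replicates and which share libraries. Spearman's rho of the log2 fold change was -0.01 with transcript length, -0.04 with GC content and 0.17 with the share of the transcript found in other genes. For WT library 3 the values were -0.16, 0.05 and -0.11, and for Null library 1 they were -0.23, 0.05 and 0.17.

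Ribosomal protein genes have many processed pseudogenes, so reads from them can align to several places. Of all 50-base windows in each annotated transcript, a median of 58.7% also occurred in another annotated gene, with a highest value of 98.6% for Rps27, and 49 of the 76 genes were above 50%. Rps3 shared 2.96% of its windows and Rps14 38.1%, while Rpl15 shared 75.2% and Rpl5 93.8%, so the counts of the last 2 are uncertain. The same holds for other genes described above, among them Rpl10 (92.1%), Rps12 (90.1%), Rpl9 (86.7%), Rpl23a (85.7%), Rps6 (84.6%) and Rpl29 (78.5%). Reads of the 194 listed pseudogenes named after these genes made up 0.0235% to 0.0411% of the Null reads and 0.0167% to 0.0313% of the WT reads. Adding them to their parent genes left the median log2 fold change at 0.44.

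Ribosomal genes outside the name rule had positive estimates in each of the 7 that were tested, of 8 listed. Of these, 0 passed the edgeR threshold (5.79% of all tested genes did) and 1 had an unadjusted p under 0.05 (25.1% of all). The median log2 fold change was 0.42, or 0.23 without WT library 3. Rack1, a scaffold protein on the small subunit, had 4306, 2924 and 3175 CPM in Null libraries 1 to 3 against 2031, 1837 and 1389 CPM in WT libraries 1 to 3. The groups did not overlap, and the log2 fold change was 0.99 (SE 0.31, edgeR adjusted p = 0.0743), or 0.82 without WT library 3. Rps3a1 had log2 fold change 0.20, Fau 0.35, Rpl36al 0.32, Rpl22l1 0.42 and Rpl7l1 0.55, and with a library left out their lowest values were 0.15, 0.10, 0.12, 0.15 and 0.32 in that order.

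The wider translation machinery was set against all tested genes, of which edgeR called 2.26% higher and 3.52% lower in Null. An unadjusted p under 0.05 was reached by 25.1% of all tested genes. None of 15 elongation factors and other TOP mRNAs passed the edgeR threshold (1 at an unadjusted p under 0.05), with a median log2 fold change of 0.30, or 0.20 without WT library 3. Among 31 initiation factors 2 rose and 1 fell in Null (7 at an unadjusted p under 0.05), with a median of 0.29 that was 0.04 without WT library 3. Eif3m, an eIF3 subunit, averaged 105 ± 22.6 CPM in Null and 43.4 ± 16.5 CPM in WT (log2 fold change 1.32, edgeR adjusted p = 0.0373), but its adjusted p reached 0.14 when a library was left out. Eif1ax, which takes part in start codon scanning, averaged 275 ± 11.7 CPM in Null and 126 ± 17.8 CPM in WT (log2 fold change 1.16, edgeR adjusted p = 0.0194). Eif5b, which joins the subunits, averaged 77 ± 22.9 CPM in Null and 164 ± 38.5 CPM in WT (log2 fold change -1.11, edgeR adjusted p = 0.0394). Adjusted p reached 0.0955 for Eif1ax and 0.135 for Eif5b with a library left out.

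Lists of genes that build ribosomes or regulate their production held no called gene, where 5.79% of all tested genes were called. None of 35 biogenesis and nucleolar genes passed the edgeR threshold, with a median log2 fold change of -0.01, or -0.12 without WT library 3. None of 11 RNA polymerase I genes passed either, with a median of -0.12, nor any of 19 genes of mTORC1, S6 kinase and MYC, with a median of -0.32. Without WT library 3 these medians were 0.11 for RNA polymerase I and -0.09 for mTORC1, S6 kinase and MYC. Of 9 assembly chaperones and p53-linked genes 0 passed, with a median of 0.22. At an unadjusted p under 0.05 by edgeR, 5 of 35, 3 of 11, 7 of 19 and 2 of 9 genes of these lists passed, in either direction, against 25.1% of all tested genes. Among 3 tested snoRNA host genes, whose transcripts are also TOP mRNAs in many cases, Snhg12 rose, averaging 37.3 ± 14.1 CPM in Null and 12.2 ± 1.85 CPM in WT (log2 fold change 1.61, edgeR adjusted p = 0.0282, up to 0.161 with a library left out). Of 76 mitochondrial ribosomal protein genes, 1 passed, Mrps34, which rose in Null (log2 fold change 1.96, edgeR adjusted p = 0.0356, up to 0.214 with a library left out). Their median log2 fold change was 0.45, or 0.28 without WT library 3, and 68 of 76 lay above 0. The cytosolic genes had a similar median of 0.44, with 67 of 76 above 0. At an unadjusted edgeR p under 0.05, 23 of 76 mitochondrial genes passed, against 16 of 76 cytosolic genes and 25.1% of all tested genes. The mitochondrial genes summed to 4999, 4018 and 4421 CPM in Null libraries 1 to 3 and to 3770, 3373 and 2868 CPM in WT libraries 1 to 3. A list of 19 members mutated in human Diamond-Blackfan anaemia had a median of 0.61, against 0.44 for all 76 tested members. All 19 lay above 0, against 88.2% of the members and 50.7% of all tested genes. Of the 19, 0 were called (0 of 76 members and 5.79% of all). An unadjusted edgeR p under 0.05 was reached by 7 (21.1% of the members and 25.1% of all). Without WT library 3 the median of the 19 was 0.38, against 0.26 for the members. Over the 4 libraries of a shared mouse number it was 0.26, against 0.09.

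Markers of other cells moved between the groups. Besides the muscle markers, 5 of 7 mast cell markers rose in Null, summing to 2063, 1415 and 4720 CPM in Null and to 952, 1051 and 376 CPM in WT, and 3 of 4 tested adipocyte markers fell. Among 8 tested keratinocyte markers, Krt15 rose and Krt14 fell, and 2 of 10 fibroblast markers rose while 2 fell. Of the T and NK cell markers 1 of 5 rose. None of the macrophage (10 tested), endothelial (7), B cell (2) and erythroid (4) markers passed the edgeR threshold, and 1 macrophage marker had an unadjusted p under 0.05. The part of cell makeup in the levels of the ribosomal protein genes was not tested.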

How the data were processed

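RNA-seq was analysed in 6 libraries of mouse cSCC tumours, 3 Kindlin-1 Null and 3 Kindlin-1 WT, grouped by the genotype label. Each deposited file lists unnormalized read counts, in whole numbers, by Ensembl gene identifier. Per the submitters' processing notes, TopHat2, Cuffdiff, DESeq2 and the build mm9 were used. Which counter and annotation were used, and whether strand was read, is not given in the sources used here. Reads in the 5 closing lines, which name no gene, were left out of library sizes and tests: reads in no gene made up 4.63% to 12%, reads with several alignments 32.9% to 40% and ambiguous reads 1.72% to 2.11% of the listed reads. Because reads with several alignments were not counted, levels of genes with many near-identical copies may be too low by an unknown amount. Symbols and transcripts came from GENCODE by identifier (32919 of 37991 matched, 86.6%), on a later build, so no coordinates of the counted genes are given. Promoters came from RefSeq, GRCm38.p6, using the first entry of each gene.

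Null was compared with WT by edgeR 4.0.16 in R 4.3.3, using quasi-likelihood F tests (robust, TMM scaling, filterByExpr defaults), Null minus WT, with Benjamini-Hochberg adjustment over all genes tested and a threshold of 0.05. SEs follow from each gene's log2 fold change and F value. CPM is TMM scaled, and log2 CPM used a prior count of 2. Divided by all assigned reads without scaling, a count of 3 reads stood at 0.0953 to 2.64 CPM in the Null libraries. In the WT libraries it stood at 0.193 to 18.6 CPM. DESeq2 1.42.0, limma 3.58.1 (voom, with a consensus correlation of 0.597 for mouse number), other scalings and filters, summed pairs and fits without each library served as alternatives. The fit over the 4 libraries of a shared mouse number was added after seeing the data. The edgeR step was tested on simulated data of independent libraries with a 4-fold change in 200 genes. It recovered 183 of the 188 changed genes tested, with 12 false calls over 11649 genes. The simulation held no outlying library, no shared mouse and no smaller change. It therefore does not show how well changes of the size seen in the members would be found. Whether libraries of a shared mouse number are separate animals is not given. The main edgeR fit, DESeq2 and the permutation tests counted each library as a separate unit. Their p-values may be too low if such libraries came from 1 mouse. The p-values thus reflect only how these samples vary, and some of that variation may be technical. The title and the file of Null library 3 carry different mouse numbers, and the title was followed.

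The members and gene lists were chosen with earlier results of these data known. Members named with values are those that passed the test (0), the 5 highest and 5 lowest by fold change and by level per length, the 5S, P stalk, ubiquitin fusion and tissue-limited genes, Rps6 and Rack1. Of the other lists, up to 4 called genes each were eligible. Rpl9, Rps18 and Rps10 and the other genes outside this rule were named after their values were seen. A few genes that this rule would name or that the plots by gene would show are not reported here, though they count in the totals.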

Additional observations from a re-analysis of the deposited data

How the results depend on the processing

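No edgeR call among the members appeared under the other scalings, with a filter of 10 CPM in 3 libraries, with same-numbered libraries summed, or with any library left out (0 to 0). The number of members called was 3 without a filter on low counts, 7 with DESeq2, 9 with mouse number as a random effect and 5 over the 4 libraries of a shared mouse number, where Rpl3l was called lower and Rps14, Rps3 and Rpl9 were among those called higher in Null. The cause of these differences was not tested. The median log2 fold change was 0.09 over those 4 libraries, 0.26 to 0.56 with a library left out and 0.38 to 0.55 under the other settings. The summed share differed by 1.09 to 2.02 percentage points with a library left out, and by 0.627 over the 4 libraries. Genes called over all tested numbered 179 to 855 with a library left out, the lowest without Null library 1, against 225 when Null library 3 and 281 when WT library 3 was dropped. The 23 named and tested genes and the ratio of Rplp0 to Rplp1 had 420 alternatives together. Of these, 382 kept direction and, for the genes, side of the threshold. Another 19 were newly past it and 19 changed sign without a call, in 7 genes. With a library left out, the log2 fold change ranged from -0.45 to 0.20 for Rpl38, -0.22 to 0.08 for Rps12, -0.08 to 2 for Rpl29, -0.19 to 0.28 for Rps27a and -0.49 to 0.25 for Rpl4. The value without WT library 3 was 0.20 for Rpl38, 0.08 for Rps12, -0.08 for Rpl29 and -0.01 for Rps27a. Over the 4 libraries it became 0.05 for Rpl38, -0.17 for Rpl29, -0.31 for Rpl23a, -0.21 for Rps27a and -0.06 for Rps6. For Rpl4 it became 0.26 with the random effect, 0.07 with both pairs summed, 0.22 with the WT pair summed, and 0.11 without WT library 1 and also without Null library 1. Rps12 stood at 0.02 without Null library 2, and Rps27a at -0.02 with library totals and -0.07 without Null library 3. No paired analysis was possible because the labels give no replicate numbers, and no mouse number occurs in both groups. With 3 libraries a group, permutations cannot give an exact p below 0.1. WT library 2, where 3 reads stand at 18.6 CPM without scaling, limits genes of low level.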
